A study of Homo sapiens with 6 samples.

Results

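The 10 genes DUSP4, DUSP5, DUSP6, SPRY1, SPRY2, SPRY4, SPRED1, SPRED2, ETV4 and ETV5 encode feedback inhibitors and transcriptional effectors of ERK signalling, and they were taken by name from the 58830 rows of the expression table. Each name matched 1 row. All 10 passed the filter on low values, at least 1 TPM (transcripts per 1000000, a read count scaled for gene length and library total) in at least 3 of the 6 libraries, as did 17711 genes in all.

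The libraries came from the human embryonic stem cell line HuES8 after directed differentiation to definitive endoderm, the germ layer that forms gut, liver and pancreas. There were 3 libraries of wild-type endoderm (DE) and 3 of endoderm with knockdown of GATA6-AS1 (KD), an RNA transcribed antisense to the endoderm factor gene GATA6. Both groups had the same medium, DMEM-F12 with 0.2% BSA, with 2.5 µM CHIR, which blocks GSK3, besides 100 ng/mL Activin A at day 1, and Activin A without CHIR for the following 2 days. How the RNA was knocked down, whether wild-type cells had any control construct, and whether replicates were separate cultures is not given in what was used here, so p-values measure only how far these libraries spread, possibly for technical reasons.

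ERK is the last kinase of the cascade from RAS through RAF and MEK, which fibroblast growth factors (FGFs) switch on through their receptors. Active ERK induces genes that dampen it again: dual-specificity phosphatases (DUSPs) remove phosphate from ERK itself, while Sprouty (SPRY) and SPRED proteins act upstream, on the way from receptor to RAF. ETV4 and ETV5 are transcription factors of the ETS family that FGF signalling induces. The RNA levels of these genes are therefore often used as a readout of the pathway in embryos and stem cells, and human stem cells are kept in FGF.

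In GENCODE 29 on GRCh38 all 10 genes are protein-coding and lie on 10 different chromosomes. The phosphatase genes are DUSP4 at chr8:29333064-29350668 (minus strand), DUSP5 at chr10:110497838-110511544 (plus) and DUSP6 at chr12:89347232-89353271 (minus). The Sprouty genes are SPRY1 at chr4:123396795-123403760 (plus), SPRY2 at chr13:80335976-80340951 (minus) and SPRY4 at chr5:142310427-142326455 (minus). SPRED1 spans chr15:38252326-38357249 (plus) and SPRED2 chr2:65310851-65432637 (minus), ETV4 spans chr17:43527844-43579620 (minus) and ETV5 chr3:186046308-186110318 (minus). The table gives 1 value per gene and does not tell transcripts of a gene apart.

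GATA6-AS1 itself had 389, 421 and 313 TPM in DE replicates 1 to 3 and 180, 163 and 126 TPM in KD replicates 1 to 3, and no KD library reached the DE range (log2 change -1.26, limma adjusted p = 0.0128) while a substantial level remained. Transcripts of mitochondrial DNA took 38.0% of TPM in DE replicate 3 and 36.2% in KD replicate 3, against 24.6% to 28.8% in the other libraries. Replicate 3 was the lowest of its group for all 10 ERK feedback genes in DE and for all 10 in KD, as it was for 78.4% and 68.3% of all genes tested. The estimated reads behind a member's value ran from 540 for SPRY1 to 10256 for SPRY4 in a single library.

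DUSP4 fell and DUSP6 rose in KD, while the other 8 genes missed the threshold of 0.05 for the p-value adjusted over all genes. That is 2 of 10, 1 in each direction, where 3.27% of all genes tested passed, 1.77% higher and 1.5% lower. With the replicate number as a block, 3 were higher (DUSP6, SPRY1 and SPRY4) and 2 lower (DUSP4 and SPRED2), where 12.5% of all genes passed, 5.88% higher and 6.62% lower. With TPM recomputed without mitochondrial genes 3 were higher (the same 3) and 1 lower (DUSP4), where 9.62% of genes passed, 4.98% higher and 4.64% lower. With both together 4 were higher (ETV5 in addition) and 2 lower, where 16.3% passed, 8.4% higher and 7.89% lower. Quantile normalization and median-ratio scaling each called 4 of the 10, where 9.9% of genes passed under each, and leaving out replicate 3 of both groups called 4, where 6.84% passed. The groups did not overlap for DUSP4, DUSP6, SPRY1, SPRY4 and SPRED2, where 20.8% of all genes tested did not overlap: 10.1% with every KD library above and 10.7% with every KD library below. The median log2 change of the 10 genes was 0.11, and that of all genes tested was -0.01.

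**Figure D1:**
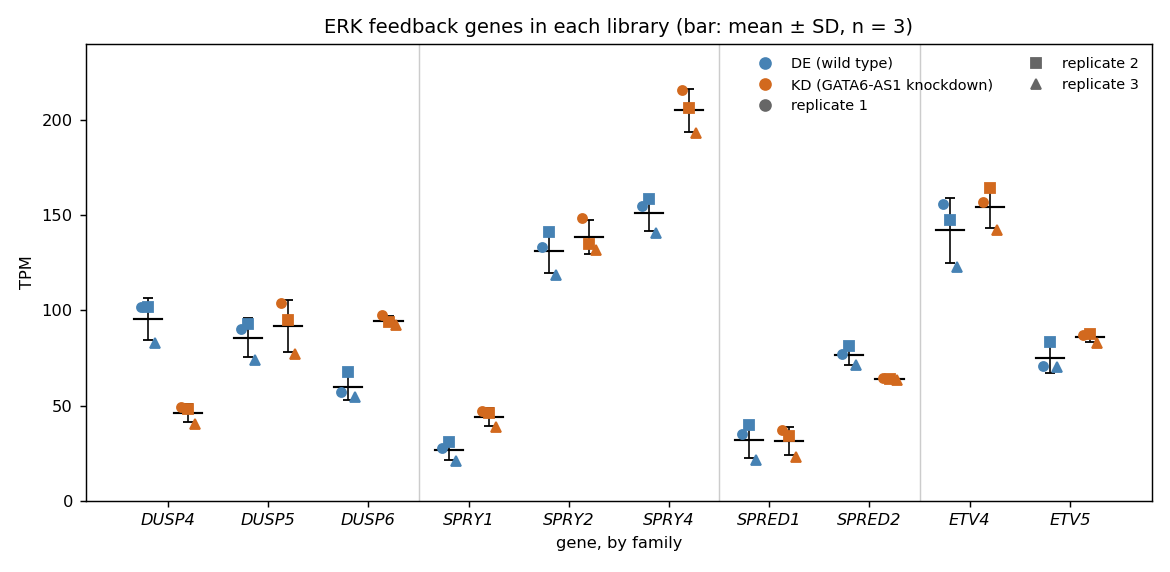
Level of each ERK feedback gene in TPM on a linear axis that starts at 0, in DE (blue) and KD (orange), with a symbol for each replicate, the mean as a bar and the SD as whiskers (n = 3 per group). KD points lie below all DE points for DUSP4 and SPRED2 and above them for DUSP6, SPRY1 and SPRY4.

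The 3 phosphatase genes went different ways. DUSP4, which encodes a nuclear phosphatase of ERK and related kinases, had 102, 102 and 82.7 TPM in DE replicates 1 to 3 and 49.2, 48.4 and 40.4 TPM in KD replicates 1 to 3. The lowest DE library was thus well above the highest KD library. The mean went from 95.4 ± 11.0 to 46.0 ± 4.86 TPM (SD, n = 3 each), which left 48.3% of the DE level. The log2 change was -1.03 (SE 0.127, 95% interval -1.33 to -0.74) and passed (limma adjusted p = 0.0105). The call was lost without DE replicate 1 (adjusted p = 0.0679) or KD replicate 2 (adjusted p = 0.0543), with fewer libraries in the fit, while the log2 change stayed between -1.13 and -0.95 without any single library.

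DUSP6, which encodes a cytoplasmic phosphatase with high selectivity for ERK, had 57.2, 67.4 and 54.4 TPM in DE against 97.6, 94.0 and 92.4 TPM in KD. All KD libraries lay close together and above the DE libraries. The mean rose from 59.7 ± 6.84 to 94.7 ± 2.65 TPM (SD, n = 3 each). The log2 change was 0.66 (SE 0.106, 95% interval 0.41 to 0.91, limma adjusted p = 0.0220). The call was lost without DE replicate 1 (adjusted p = 0.129), KD replicate 1 (0.0975), KD replicate 2 (0.124) or KD replicate 3 (0.0620), and with no filter on low values (0.0517). The log2 change stayed between 0.60 and 0.75 without any single library. In the GENCODE 29 annotation 1875 exonic bases of DUSP6, 40.5% of its exon length, are shared with an antisense gene, AC024909.2, which was not analysed here. Whether counting used strand is unknown here, and reads of this pair could not be told apart.

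DUSP5, a nuclear phosphatase that is selective for ERK, had 90.1, 92.9 and 73.9 TPM in DE against 104, 94.9 and 76.9 TPM in KD. The groups overlapped widely. Its log2 change was 0.10 with a 95% interval of -0.24 to 0.43 (limma adjusted p = 0.879).

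Within each library the balance between the phosphatases differed by group. The ratio of DUSP4 to DUSP6 TPM was 1.78, 1.51 and 1.52 in DE against 0.505, 0.515 and 0.438 in KD. DUSP4 RNA thus outnumbered DUSP6 RNA in every DE library and was the scarcer of the pair in every KD library. This ratio does not depend on the library total, so the mitochondrial share does not enter it. The summed TPM of DUSP4, DUSP5 and DUSP6 was 249, 262 and 211 in DE and 251, 237 and 210 in KD, ranges that overlap. DUSP4 made up between 38.8% and 40.8% of that sum in DE and between 19.3% and 20.4% in KD, and DUSP6 between 23.0% and 25.8% in DE and between 38.9% and 44.0% in KD. DUSP5 made up between 35.0% and 36.2% in DE and between 36.7% and 41.4% in KD. The sum and these shares were described without a test.

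**Figure D2:**
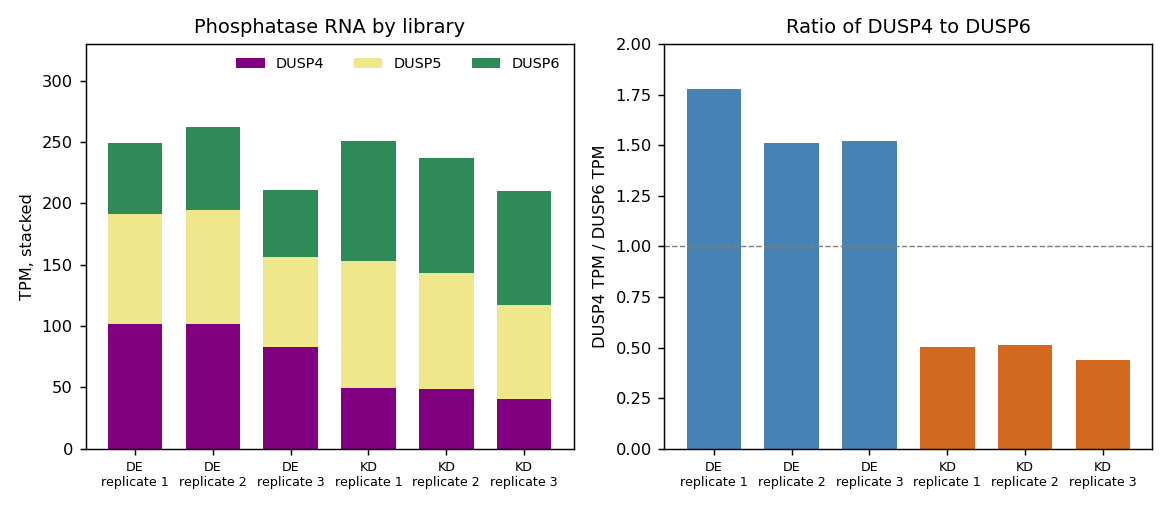
Left, TPM of DUSP4, DUSP5 and DUSP6 stacked for each library, from 0. Right, the ratio of DUSP4 to DUSP6 TPM in each library, from 0, with a dashed line at equal levels; the DE libraries (blue) lie between 1.51 and 1.78 and the KD libraries (orange) between 0.438 and 0.515.

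The Sprouty genes encode membrane-associated inhibitors of the route from receptor to RAF. SPRY4 had 155, 158 and 141 TPM in DE against 216, 206 and 193 TPM in KD, with no overlap between the groups. Its mean was 151 ± 9.43 TPM in DE against 205 ± 11.3 in KD (SD, n = 3 each), and the log2 change was 0.44 (SE 0.0912, 95% interval 0.22 to 0.65). SPRY4 missed the threshold by little (limma adjusted p = 0.0524), and passed with the replicate block (adjusted p = 0.00519) and with TPM recomputed without mitochondrial genes (adjusted p = 0.00478). SPRY4-IT1, a noncoding RNA named for an intron of SPRY4, had 8.35, 5.54 and 3.30 TPM in DE against 9.84, 9.39 and 7.22 TPM in KD, and its log2 change of 0.60 missed the threshold (limma adjusted p = 0.374). Its reads could not be told from unspliced SPRY4 reads.

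SPRY1 was the least abundant of the 10 genes in DE, at 27.5, 31.1 and 21.1 TPM, and had 47.1, 46.2 and 38.7 TPM in KD. Every KD library exceeded every DE library. The mean was 26.6 ± 5.08 TPM in DE against 44.0 ± 4.61 in KD (SD, n = 3 each), and the log2 change of 0.72 (SE 0.160, 95% interval 0.34 to 1.09) was the largest upward value among the 10 genes. It did not pass (limma adjusted p = 0.0615), and passed with the replicate block (adjusted p = 0.00433) and with TPM recomputed without mitochondrial genes (adjusted p = 0.00431). SPRY2, by contrast, had 133, 141 and 119 TPM in DE against 149, 135 and 132 TPM in KD, with overlap between the groups. Its log2 change was 0.08 with a 95% interval of -0.16 to 0.32 (limma adjusted p = 0.848). SPRY2 made up between 42.2% and 42.7% of the summed SPRY1, SPRY2 and SPRY4 TPM in DE and between 34.8% and 36.3% in KD. SPRY1 made up between 7.52% and 9.41% in DE and between 10.6% and 11.9% in KD.

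The stretch before a RefSeq start site is shown for each of these Sprouty genes, to set SPRY1 and SPRY4, whose groups did not overlap, beside SPRY2, whose groups did. Each is read 5′ to 3′ along the gene, leaves out bases that GENCODE 29 counts as exon of that gene, and has the letters GGAA or their reverse complement TTCC, the core that ETS factors such as ETV4 and ETV5 recognise, in capitals. The build is GRCh38.p14, and the stretches are chr4:123396545-123396794 on the plus strand for SPRY1, chr5:142324418-142324497 on the minus strand for SPRY4 and chr13:80341127-80341376 on the minus strand for SPRY2. The SPRY4 stretch is the 80 bases of its window farthest from the start and lies inside the gene's span. The SPRY1 and SPRY2 stretches are whole windows of 250 bases outside the span, so the regions are not alike.
SPRY1: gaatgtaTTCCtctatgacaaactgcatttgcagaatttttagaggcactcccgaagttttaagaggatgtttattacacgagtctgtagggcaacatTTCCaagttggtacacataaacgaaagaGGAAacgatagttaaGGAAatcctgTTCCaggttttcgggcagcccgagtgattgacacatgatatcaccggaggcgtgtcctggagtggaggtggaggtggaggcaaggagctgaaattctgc
SPRY4: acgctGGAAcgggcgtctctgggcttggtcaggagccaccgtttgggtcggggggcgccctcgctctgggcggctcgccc
SPRY2: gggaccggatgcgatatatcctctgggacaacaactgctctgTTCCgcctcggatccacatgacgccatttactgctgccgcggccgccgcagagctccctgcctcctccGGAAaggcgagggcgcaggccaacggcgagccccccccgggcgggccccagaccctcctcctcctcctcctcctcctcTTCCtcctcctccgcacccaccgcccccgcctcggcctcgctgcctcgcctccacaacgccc

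RefSeq gave 10 such windows of 250 bases before a start for 6 of the 10 genes (SPRY1, SPRY2, SPRY4, SPRED1, SPRED2 and DUSP6), searched on both strands. GGAA occurred 5 times in the SPRY1 window shown and 4 times in its other window. It occurred 3 times in the SPRY2 window shown and 4 times in each of its other windows. The SPRY4 window, of which 80 bases are shown, held it 2 times, and the DUSP6 window 6 times. The SPRED2 windows held it 4 and 5 times and the SPRED1 window 3 times. The median of 35116 RefSeq windows was 3, and 92.7% held at least 1. The counts did not sort the genes by direction of change. The longer letters CCGGAA, which contain GGAA, were found in the SPRY2 window shown, in the SPRY1 window that is not shown and in 14.5% of all windows. CCGGAAGT (3.42% of all windows), the AP-1 letters TGANTCA (6.57%) and the CRE letters TGACGTCA (1.65%) were in none of the 10 windows. These matches are a description of the letters.

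SPRED2, which encodes a Sprouty-related inhibitor that binds RAS and RAF, had 77.0, 81.3 and 71.2 TPM in DE against 64.5, 64.0 and 63.6 TPM in KD. The KD libraries were nearly equal and all lay below DE. The mean was 76.5 ± 5.03 TPM in DE against 64.0 ± 0.424 in KD (SD, n = 3 each), and the log2 change was -0.25 (SE 0.0893, 95% interval -0.46 to -0.04). SPRED2 did not pass (limma adjusted p = 0.225) and passed narrowly with the replicate block (adjusted p = 0.0474). It did not pass with TPM recomputed without mitochondrial genes (adjusted p = 0.0711).

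SPRED1, the gene mutated in Legius syndrome, varied most among replicates, with 35.0, 39.6 and 21.6 TPM in DE against 37.1, 33.9 and 23.2 TPM in KD. Its coefficient of variation was 29.3% in DE and 23.3% in KD, against 6.23% to 19.1% for the other members in DE. The log2 change was -0.01 with a 95% interval of -0.62 to 0.59 (limma adjusted p = 0.996). Without the replicate block this interval was wide enough to hold the values seen for DUSP5, SPRY2 and SPRY4. With the block the SE was 0.0836 instead of 0.258, and SPRED1 again did not pass (limma adjusted p = 0.948). The sign of its log2 change differed when single libraries were left out.

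The ETS factor genes were abundant and did not pass. ETV4 had 156, 148 and 123 TPM in DE against 157, 164 and 142 TPM in KD, and the groups overlapped (log2 change 0.13, 95% interval -0.15 to 0.40, limma adjusted p = 0.756). ETV5 had 71.0, 83.7 and 70.1 TPM in DE against 86.9, 87.7 and 83.0 TPM in KD (log2 change 0.20, 95% interval -0.04 to 0.43, limma adjusted p = 0.431). The groups overlapped for ETV5 only through DE replicate 2, which lay above KD replicate 3. With TPM recomputed without mitochondrial genes the groups no longer overlapped for ETV4 and ETV5, with KD higher, and neither passed (adjusted p = 0.227 and 0.116). That scaling left 5 of the 10 genes with every KD library above and 2 with every KD library below, where 29.8% of genes tested did not overlap, 15.1% higher and 14.7% lower. ETV5 passed when the scaling was combined with the replicate block (adjusted p = 0.0345). ETV4 shares 68 exonic bases, 1.89% of its exon length, with DHX8 on the opposite strand, which had 32.4 to 40.3 TPM, and the antisense ETV5-AS1 lies within ETV5 without shared exonic bases at 0.835 to 2.19 TPM. ETV5 shares 164 exonic bases, 2.83% of its exon length, with DGKG on the same strand, which had at most 0.196 TPM.

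**Figure D3:**
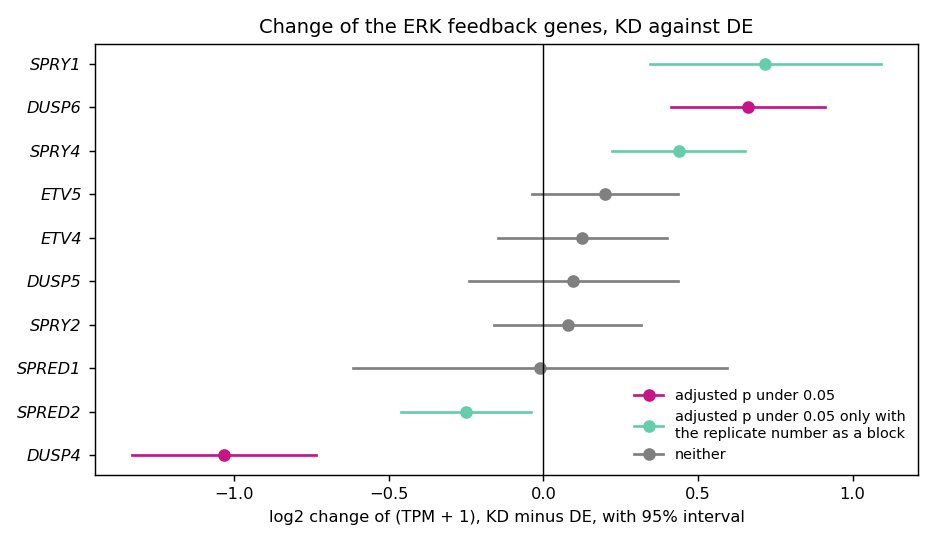
Log2 change of TPM plus 1 between KD and DE for the 10 genes, with 95% intervals from limma, sorted by size. The intervals of DUSP4 and SPRED2 lie below 0 and those of SPRY1, DUSP6 and SPRY4 above it; colour gives whether the adjusted p was under 0.05, under it with the replicate block, or neither.

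The order of levels was similar in both groups at the top and differed lower down. SPRY4, ETV4 and SPRY2 led in DE at 151, 142 and 131 TPM, with overlapping neighbours, and in KD at 205, 155 and 138 TPM, where SPRY4 no longer overlapped with ETV4. In DE, DUSP4 came next at 95.4 TPM, below SPRY2 without overlap, then DUSP5, SPRED2 and ETV5, each within the range of its neighbour. DUSP6 followed below ETV5 without overlap, and SPRED1 and SPRY1 stood lowest with overlapping ranges. In KD, DUSP6 took the place after SPRY2, within the range of DUSP5, while DUSP4 dropped below SPRED2 to the level of SPRY1. By mean TPM in DE, SPRY1, the lowest of the 10, was above 69.3% of genes tested and SPRY4 above 95.7%.

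The kinases and adaptors that carry the signal were examined next. None of the 26 listed genes of the ERK cascade and its adaptors passed in limma, and 2 had an unadjusted p under 0.05, while 1 passed without DE replicate 3. Their median log2 change was -0.0012, and 3.27% of all genes tested passed. FRS3, an adaptor of FGF receptors, had the smallest p, with 14.3 ± 1.51 TPM in DE against 9.43 ± 0.677 in KD (log2 change -0.55, limma adjusted p = 0.0622). MAPK3, which encodes ERK1, had 51.2 ± 3.53 and 40.1 ± 1.71 TPM (log2 change -0.34, limma adjusted p = 0.123). MAP2K2 (MEK2) and the adaptor SHC1 had log2 changes of -0.22 and 0.17. With the replicate block 3 genes were lower (FRS3, MAPK3 and MAP2K1) and 1 higher (PEBP1), where 12.5% of all genes passed. With TPM recomputed without mitochondrial genes 1 passed, FRS3 (lower, limma adjusted p = 0.0110), where 9.62% of genes passed.

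Other feedback genes and relatives of the 10 genes likewise did not pass with all 6 libraries on the deposited TPM without the replicate block. There 3.27% of all genes tested did. Of 14 listed, 13 were tested, since DUSP2 was under 1 TPM in all libraries, and 0 passed in limma, with 3 under an unadjusted p of 0.05 and a median log2 change of 0.14. PEA15, which holds ERK in the cytoplasm, had 93.9 ± 0.772 TPM in DE against 125 ± 9.39 in KD (log2 change 0.41, limma adjusted p = 0.0602). PEA15 was the 1 gene of the list to pass without replicate 3 of both groups (limma adjusted p = 0.0434), where 6.84% of all genes passed. IL17RD, also called SEF, an inhibitor of FGF signalling at the membrane, had 125 ± 22.5 and 155 ± 11.9 TPM (log2 change 0.31, limma adjusted p = 0.367). DUSP8, a phosphatase for the stress kinases JNK and p38, and FLRT3, a membrane protein that binds FGF receptors, had log2 changes of -0.33 and -0.39. With the replicate block PEA15 and IL17RD were higher and DUSP8 and FLRT3 lower, where 12.5% of all genes passed. With TPM recomputed without mitochondrial genes 1 passed, IL17RD (higher, limma adjusted p = 0.0355), where 9.62% of genes passed.

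Genes outside the 10 that were listed as responsive to ERK gave 2 that rose and none that fell among 19 tested of 23 listed. Over all genes tested 1.77% rose and 1.5% fell. The median log2 change of the list was 0.21. FOSL1, which encodes the AP-1 subunit FRA1, had 1.04, 1.07 and 1.48 TPM in DE against 5.64, 5.53 and 5.11 TPM in KD, and rose by 1.55 on the log2 scale (limma adjusted p = 0.00525). PHLDA1, a gene induced by growth factors, had 7.78, 7.92 and 5.74 TPM in DE against 18.5, 17.8 and 13.3 TPM in KD, and rose by 1.10 on the log2 scale (limma adjusted p = 0.0209). The groups were far apart for both genes, though FOSL1 was near the filter limit of 1 TPM in DE, with 14, 13 and 18 estimated reads. CCND1, encoding cyclin D1, had 82.0 ± 14.0 TPM in DE against 137 ± 17.1 in KD and just missed the threshold with a log2 change of 0.74 (limma adjusted p = 0.0525), as did JUNB with 0.77 (limma adjusted p = 0.0576). With the replicate block 8 genes of the list were higher, CCND1 and JUNB among them, where 5.88% of all genes were higher. The 2 lower were IER3 and EPHA4 (log2 changes -0.19 and -0.41), where 6.62% of all genes were lower. With TPM recomputed without mitochondrial genes 5 were higher and 1 lower, where 4.98% of genes were higher and 4.64% lower. The list gave 1 call when replicate 1 or 2 of either group was left out, 2 without KD replicate 3 and 3 without DE replicate 3.

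Among the listed genes named for FGFs and their receptors, 3 of 12 tested rose, FGF19, FGF4 and FGF1, and 1 fell, FGF17. Their log2 changes were 0.98, 0.97, 1.00 and -0.60, where 3.27% of all genes tested passed. FGF1 had 0.795, 0.975 and 0.851 TPM in DE against 2.79, 2.68 and 2.77 TPM in KD. It was thus under 1 TPM in every DE library and met the filter only through KD. FGF17 was by far the most abundant ligand of the list, at 2105 ± 17.3 TPM in DE against 1388 ± 80.7 in KD (SD, n = 3 each, limma adjusted p = 0.0137). None of the 12 passed in limma without DE replicate 1 or KD replicate 2, and 1 passed without KD replicate 1. With the replicate block 5 were higher and 2 lower, where 5.88% of all genes were higher and 6.62% lower. The calls added were FGF2 and FGFR1 (higher, log2 changes 0.95 and 0.25) and FGFR2 (lower, -0.32). With TPM recomputed without mitochondrial genes 4 were higher and 2 lower, where 4.98% of genes were higher and 4.64% lower.

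**Figure D4:**
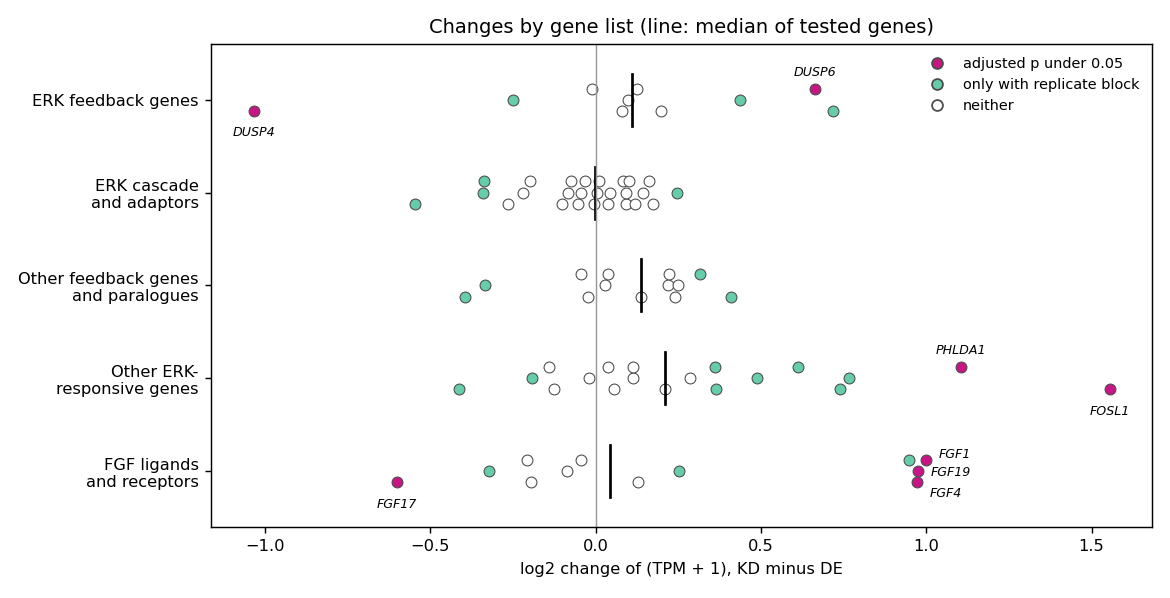
Log2 change of TPM plus 1 between KD and DE for each tested gene of the 10 ERK feedback genes and of 4 lists of pathway genes, each point a gene and each black line the median of its list. Named genes passed an adjusted p of 0.05; DUSP4 and FGF17 lie to the left, and DUSP6, FOSL1, PHLDA1, FGF1, FGF19 and FGF4 to the right.

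Markers of cell state moved with the same groups, where 1.77% of all genes tested rose and 1.5% fell. Of 10 stem cell markers 6 rose and none fell, and their summed TPM ran from 3033 to 3835 in DE and from 3970 to 4512 in KD. POU5F1 was at 682 ± 78.3 TPM in DE against 1247 ± 105 in KD (SD, n = 3 each), and NANOG and SOX2 rose by 0.93 and 0.98 on the log2 scale. Of 10 endoderm markers 5 fell and none rose, with sums from 24761 to 28306 TPM in DE and from 17952 to 19703 TPM in KD, most of it CER1. FOXA2 and CXCR4 fell by 0.74 and 0.99 on the log2 scale, and SOX17, with a log2 change of -1.07, did not pass (limma adjusted p = 0.0530) but passed with the replicate block (adjusted p = 0.00757). With that block 8 endoderm markers were lower and 7 stem cell markers higher, where 6.62% of all genes were lower and 5.88% higher. With TPM recomputed without mitochondrial genes 7 endoderm markers were lower and 8 stem cell markers higher, where 4.64% of genes were lower and 4.98% higher. With both together 8 endoderm markers were lower, and 8 stem cell markers were higher and 1 lower, where 7.89% of genes were lower and 8.4% higher. Quantile normalization gave 7 endoderm markers lower, and 7 stem cell markers higher and 1 lower, where 9.9% of genes passed. No marker of either list was at 0 in all libraries, and endoderm and stem cell markers were present in both groups. Without DE replicate 1 or KD replicate 2 no endoderm marker passed in limma and 2 stem cell markers did, without KD replicate 1 again 2 stem cell markers, and without DE replicate 2 or KD replicate 3 there were 2 endoderm markers.

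The other marker lists were partly unexpressed: 4 of 10 mesoderm markers, 2 of 8 neuroectoderm markers, 4 of 8 trophoblast and amnion markers and 4 of 8 fibroblast markers stayed under 1 TPM in all libraries. Their summed TPM in DE and KD ran from 124 to 160 and from 167 to 181 for mesoderm, from 218 to 276 and from 258 to 262 for neuroectoderm, from 69.5 to 74.0 and from 55.2 to 56.8 for trophoblast and amnion, and from 123 to 142 and from 128 to 143 for fibroblasts. Of the tested markers, 2 of 5 for mesoderm rose (KDR and TBX5) and 1 fell (HAND1), 2 of 4 for trophoblast and amnion rose (GATA2 and TFAP2C) and 2 fell (GATA3 and ERVW-1), and 1 of 4 for fibroblasts rose (THY1). HAND1 had 4.50, 3.67 and 4.72 TPM in DE against 0.816, 0.353 and 1.07 TPM in KD, and met the filter only through DE. None of 5 for neuroectoderm passed in limma, and 3 had an unadjusted p under 0.05. With the replicate block on TPM recomputed without mitochondrial genes 2 neuroectoderm markers were higher, where 8.4% of genes were. The trophoblast and amnion calls went from 4 to 0 in limma without DE replicate 1, 1 without KD replicate 1 or KD replicate 2 and 2 without DE replicate 2 or KD replicate 3, and the mesoderm calls from 3 to 1 without DE replicate 1 or KD replicate 2. Fibroblast markers had 2 calls, 1 in each direction, with the replicate block, where 12.5% of all genes passed, and 2 calls without DE replicate 3. In these bulk samples, fewer cells of a type and less RNA per cell cannot be told apart, and the part that the mix of cell states had in the levels of the ERK feedback genes was not tested.

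The genes with the profile nearest to DUSP4 and DUSP6 over the 6 libraries were sought among 9400 genes of at least 10 TPM on average, by the Euclidean distance between log2 profiles centred on their own mean. For DUSP4 these were ANKDD1A, UPK1B and the chemokine receptor gene ACKR3, at distances of 0.145, 0.152 and 0.158. ACKR3 had 125, 116 and 93.3 TPM in DE against 61.2, 53.0 and 47.9 TPM in KD. For DUSP6 they were T, the brachyury gene, SEPHS1 and GLTP, at 0.108, 0.110 and 0.126. T had 35.1, 39.0 and 33.3 TPM in DE against 56.1, 58.6 and 54.5 TPM in KD. Since they were chosen by nearest profile, all 6 genes have the step between DE and KD of the gene they resemble. Replicate 3 was the lowest of both groups in all but GLTP, whose lowest DE library was replicate 1 (25.7 TPM).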

How the data were processed

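RNA-seq of total RNA gave the authors' deposited table of TPM (read counts divided by gene length and scaled to a common total) for 58830 rows, and each column of it sums to 1000000. HISAT2 2.1.0, featureCounts, GRCh38 and DESeq2 are named, without their roles, in the submitters' processing notes. The annotation, strand setting and filters of the counting were not given in the sources used here. Since TPM are not counts, limma 3.58.1 in R 4.3.3 was fitted to log2(TPM + 1) over the 17711 genes that reached 1 TPM in 3 or more of the 6 libraries, using eBayes with trend. The 2-sided p-values were adjusted over these genes (Benjamini-Hochberg) and called under 0.05. The fit was also run on simulated data with independent noise in each library. That setting lacks the replicate pattern seen here, so no conclusion about these data is drawn from it. Fold changes are on the scale of TPM plus 1 and understate changes of low genes.

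Reads behind a value were estimated from whole-number steps of TPM times exon length (GENCODE 29), where between 88.3% and 89.0% of values under 50 reads lay within 0.02 of a whole number. They describe depth only, and the estimate covers 18640811 to 24510571 reads per library. After group means were removed, libraries of the same replicate number correlated across genes (0.108, 0.144 and 0.347), each above the limit of 0.1 for pairs, and the labels number replicates 1 to 3 in both groups. DE replicate 2 and KD replicate 1 also correlated, at 0.121, and no label says what the number stands for. Fits with that number as a block on the deposited TPM are given where they change the call of a gene described or a list's count. The block on TPM recomputed without mitochondrial genes is given for the members and for some lists only.

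The members, the gene lists and the tests were chosen with earlier results of these data known. All 10 members are named, and from each pathway list the 4 genes with the smallest p. From marker lists POU5F1, NANOG, SOX2, SOX17, FOXA2, CXCR4 and genes past the threshold may be named. For DUSP4 and DUSP6 the 3 genes of most similar profile are named, as are overlapping genes. MAP2K1, PEBP1, IER3, EPHA4, FGF2, FGFR1, FGFR2 and the GGAA letters were added after values were seen. Promoter sequences are RefSeq's (GRCh38.p14). The alternatives covered pseudocounts (0.1 and 0.5), filters, scalings, variance models, a threshold of 0.01, the replicate block and left-out libraries. The replicate block together with TPM recomputed without mitochondrial genes was added after seeing the data. Python 3.11.15 with pandas 2.3.3, numpy 2.4.6 and matplotlib 3.10.9 served for the rest.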

Additional observations from a re-analysis of the deposited data

How the results depend on the processing

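DUSP4 and DUSP6 kept their direction under all 19 alternatives, and DUSP4 its call under 16 and DUSP6 under 13. SPRY1 and SPRY4 kept theirs too and passed under 6 and 7 alternatives, which rescaled the libraries, used the replicate block or left out replicate 3 of both groups (SPRY4 also with a filter at a mean of 5 TPM). Of the 10 genes, 5 passed with the replicate block, 4 without mitochondrial genes, 6 with both, 4 by median-ratio scaling and 4 by quantile normalization. Without replicate 3 of both groups 4 passed, with no filter on low values 1, and at an adjusted p of 0.01 there were 0, where 5 had an unadjusted p under 0.05. Without single libraries 0 to 2 passed in limma, 0 without DE replicate 1 and without KD replicate 2, where 4 each had an unadjusted p under 0.05. Of all genes, 2215 passed with the replicate block, 1700 without mitochondrial genes, 2878 with both, 1753 by median-ratio scaling, 1754 by quantile normalization, 1212 without replicate 3 of both groups, 239 with no filter, 106 at 0.01 and 87 to 610 without single libraries. The block changed the call of no other member than SPRY1, SPRY4 and SPRED2. The log2 change of DUSP5 was -0.0045 without DE replicate 3 and 0.22 without KD replicate 3 (its range), and that of SPRED1 0.00033 without mitochondrial genes, with or without the block, 0.07 without DE replicate 1, 0.16 without DE replicate 2 and 0.19 without KD replicate 3, from a lowest value of -0.27 without DE replicate 3; neither gene passed in any. The cause of these differences was not tested. Counting precision was lowest for SPRY1, at 540 estimated reads in DE replicate 3.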
